A study of Mus musculus with 4 samples.

Results

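Expression of genes that carry out mitosis and chromosome segregation was compared between MIZ-1WT and MIZ-1dPOZ B220+ splenocytes. The set was a list of 48 gene names grouped by function, drawn up with earlier results of these data known, and 48 of 48 were found among the 41214 genes of the count table. RNA was sequenced from spleen cells selected with beads for B220, a surface form of CD45 carried by B cells, in 2 biological replicates per genotype, without stimulation. The MIZ-1dPOZ group, labelled Miz-1 deltaPOZ, came from mice with a floxed POZ domain of Miz-1 crossed to MB1-Cre. In this cross the Cre is driven by the promoter of *Cd79a*, so that B cells make a MIZ-1 protein without the POZ domain, through which MIZ-1 binds partner proteins. The MIZ-1WT group is labelled WT, and whether it carried the floxed allele or the Cre is not given in the labels. All lines were on a C57BL/6 background, and the methods place the mice in the second or the third month of life. Whether a library came from 1 mouse or from pooled mice, and the sex of the mice, are not given for these libraries, so p-values measure the spread between 2 libraries per genotype.

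A resting B cell in the spleen is not in the cell cycle and makes little of the machinery of division. When a cell passes from S phase through G2 into mitosis, cyclins A and B activate CDK1, chromosomes are condensed, kinetochores form on the centromeres and capture microtubules of the spindle, and the spindle checkpoint holds back the anaphase-promoting complex until every chromosome is attached. Separase then cuts cohesin, motor proteins move the chromosomes apart, and cytokinesis divides the cell. Most genes of this program are switched on together late in the cycle. In resting cells the DREAM complex holds them off, and in dividing cells its MuvB core works with B-MYB and FOXM1 to switch them on, through a promoter element called the CHR (TTTGAA or TTTAAA) that often lies near CCAAT boxes bound by NF-Y. In the spleen, B cells divide mainly in germinal centers and on the way to plasma cells.

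Because members of this set are described as a group that is switched on through shared promoter letters, their promoters were read first. RefSeq promoters of GRCm38.p6, from 250 bases before to 50 bases after a start, were matched by symbol for 40 of the 48 genes, which gave 42 promoters, with overlapping windows for *Ect2* and *Prc1*. *Aurkb*, *Ccna2*, *Esco2*, *Foxm1*, *Incenp*, *Kif20a*, *Smc4* and *Tpx2* had no match. The stretches below are the 110 bases that precede the start, 5′ to 3′ on the gene's strand. Capitals mark the motifs searched, on either strand. These were the CHR in its forms TTTGAA and, less often described, TTTAAA, the CCAAT box, and the E2F letters TTCCCGC with their variant form TTGGCGC. On the other strand, the CCAAT box reads ATTGG, and the first form of the CHR then reads TTCAAA. The first 8 are shown because they hold such letters and belong to genes that were higher in MIZ-1dPOZ by 3.36-fold or more. *Mybl2* and *Mad2l1* are shown for contrast, since neither stretch holds an exact match to these letters. *Mybl2* was 3.40-fold and *Mad2l1* 1.45-fold higher. The stretch of *Mybl2* holds ttggcgg, which differs from TTGGCGC in its last base, and near matches were not searched. The RefSeq starts are not always the starts of the genes as annotated for counting. The stretch of *Mad2l1* ends at 66535220, whereas the annotated gene starts at 66535390. The windows of *Kif2c* and *Cdca8* lie inside the annotated genes.
Cdk1, chr10:69352913-69353022, minus strand: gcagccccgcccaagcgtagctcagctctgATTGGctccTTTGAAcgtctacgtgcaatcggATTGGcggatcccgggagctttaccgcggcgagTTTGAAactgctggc
Ccnb2, chr9:70421555-70421664, minus strand: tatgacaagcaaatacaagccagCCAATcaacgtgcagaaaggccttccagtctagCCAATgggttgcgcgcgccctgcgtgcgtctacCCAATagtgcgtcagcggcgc
Plk1, chr7:122159325-122159434, plus strand: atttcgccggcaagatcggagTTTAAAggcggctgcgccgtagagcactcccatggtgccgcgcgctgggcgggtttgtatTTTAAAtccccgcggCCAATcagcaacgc
Cdc20, chr4:118437344-118437453, minus strand: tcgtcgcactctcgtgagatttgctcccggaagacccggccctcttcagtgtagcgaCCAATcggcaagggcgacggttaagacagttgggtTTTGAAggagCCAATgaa
Espl1, chr15:102296183-102296292, plus strand: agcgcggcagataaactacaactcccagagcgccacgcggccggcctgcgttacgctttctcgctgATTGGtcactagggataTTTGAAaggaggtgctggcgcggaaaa
Kif11, chr19:37376272-37376381, plus strand: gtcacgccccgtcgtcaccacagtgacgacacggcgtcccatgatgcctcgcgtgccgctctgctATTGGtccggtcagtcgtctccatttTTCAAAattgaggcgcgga
Top2a, chr11:99024190-99024299, minus strand: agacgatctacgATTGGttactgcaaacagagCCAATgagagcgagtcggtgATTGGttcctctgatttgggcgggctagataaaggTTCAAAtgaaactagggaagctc
Ncapg, chr5:45669815-45669924, plus strand: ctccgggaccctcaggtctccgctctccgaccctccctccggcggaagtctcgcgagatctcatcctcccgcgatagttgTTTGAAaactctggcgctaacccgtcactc
Mybl2, chr2:163054525-163054634, plus strand: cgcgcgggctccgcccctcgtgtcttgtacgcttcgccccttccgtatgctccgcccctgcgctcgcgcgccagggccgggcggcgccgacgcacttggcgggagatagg
Mad2l1, chr6:66535111-66535220, plus strand: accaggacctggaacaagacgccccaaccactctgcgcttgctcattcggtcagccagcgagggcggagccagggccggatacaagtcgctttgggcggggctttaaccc

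In *Cdk1*, which encodes the kinase that drives entry into mitosis, a CHR began 15 bases before the start and CCAAT boxes began 48 and 80 bases before it. *Plk1* had the other form of the CHR, TTTAAA, 29 bases before its start and a CCAAT box 14 bases before it. In *Top2a*, 3 CCAAT boxes and a CHR fell within the stretch shown. Over the 42 promoters, a CHR of either form was found in 36, or 85.7%, against 19.8% of the 12997 promoters of tested genes and 27.6% of all 32851 promoters of the table. The CHR began within 50 bases of the start in 32 promoters, or 76.2%, against 5.25% of promoters of tested genes. CCAAT boxes were found in 73.8% of the promoters of the set and in 37.7% of those of tested genes, and 2 or more boxes in 47.6% against 14.1%. CHR and CCAAT stood in the same window in 71.4% of the set and in 7.72% of promoters of tested genes. Letters of E2F sites, which are known from genes of S phase, were also searched. TTCCCGC was found in 2.38% against 8.06%, and TTGGCGC, which can overlap a CCAAT box, in 19.0% against 4.08%. Only exact matches were counted, so E2F sites with other letters are not in these shares. These shares are a description of letters, and no factor was measured on these promoters here. Because the set is already described as switched on through CHR and CCAAT letters, their high shares are not independent evidence for it.

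CHR and CCAAT letters stood in promoters of genes with large and with small differences. Among the 36 promoters of genes that were called higher with at least a 2-fold difference, 31 held a CHR and 28 a CCAAT box, and among the other 6 promoters these numbers were 5 and 3. E2F letters of either form stood in 9 of the 36 and in 0 of the other 6, beside 11.6% of promoters of tested genes. With 6 promoters this does not set the groups apart. The overlapping windows of *Ect2* and *Prc1* were counted separately, and both windows of *Ect2* hold TTGGCGC. *Cenpa*, whose level did not pass the test, has a CHR 17 bases before its start and CCAAT boxes 86 and 109 bases before it. In *Nuf2* and *Nusap1*, which were 5.17-fold and 3.65-fold higher, neither a CHR nor a CCAAT box was found in the window.

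The comparison of the genotypes asked how far the mitotic program is expressed in unstimulated B220+ splenocytes from MIZ-1dPOZ mice. Nearly the whole set was higher in MIZ-1dPOZ. All 48 genes had enough counts to be tested, with at least 86 counts in every library, so no gene entered through one genotype alone. At an adjusted p under 0.05 in edgeR's quasi-likelihood test, with adjustment over all 14554 tested genes, 45 of the 48 genes were higher and 0 were lower, whereas 21.1% of all tested genes were higher and 18.9% were lower. A difference of at least 2-fold on top of this was reached by 40 of the 48, against 9.65% of all tested genes. Both MIZ-1dPOZ libraries lay above both MIZ-1WT libraries for 47 genes, which is so for 37.2% of tested genes, and 0 genes lay below both, which is so for 37.6% of tested genes. In 1 gene, *Smc4*, the libraries overlapped. Because the list was drawn up with earlier results known, these counts describe the set and are not independent evidence of its direction. The median log2 fold change (MIZ-1dPOZ over MIZ-1WT) was 1.79, or 3.45-fold, beside -0.01 over all tested genes. In bulk RNA, a larger share of dividing cells and more RNA of these genes in each cell cannot be told apart.

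Summed over the 48 genes, the normalized level was 1140 and 1150 CPM (counts scaled to a common library total after TMM normalization) in the MIZ-1WT libraries and 2881 and 2522 CPM in the MIZ-1dPOZ libraries. The sum was therefore 2.36 times as high in MIZ-1dPOZ, less than the 3.45-fold median, and *Smc4*, the most abundant gene, did not pass the test. Per length, the median level over the set went from 2.11 RPKM (the same kind of value divided by the exon length) in MIZ-1WT to 6.61 in MIZ-1dPOZ. The set was low but measured in the MIZ-1WT libraries, and the smallest counts were those of *Ube2c* in MIZ-1WT replicate 2.

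**Figure D1:**
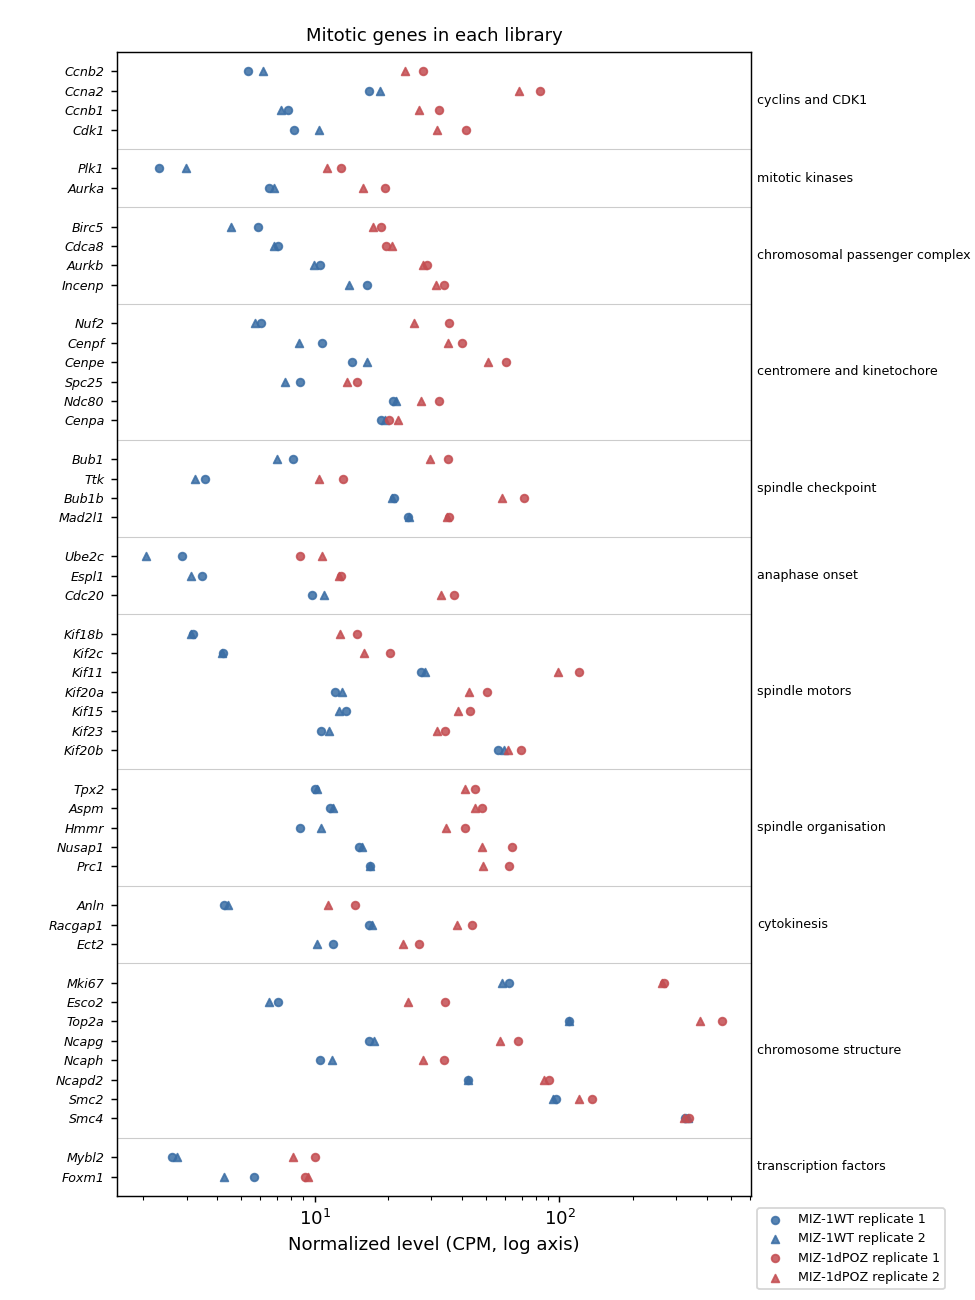
Normalized level of each of the 48 genes in CPM on a log axis, grouped by role, with blue for MIZ-1WT, red for MIZ-1dPOZ, circles for replicate 1 and triangles for replicate 2. In 47 rows both red points lie to the right of both blue points, and in the row of *Smc4* the points overlap.

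Cyclins and their kinase were higher throughout, with 4 of 4 genes called and log2 fold changes from 1.96 to 2.15. *Ccna2* (ENSMUSG00000027715, chromosome 3, 36564865 to 36572150) encodes cyclin A2, which acts in S phase and at the entry into mitosis, and had 728 and 774 counts in MIZ-1WT against 3970 and 3013 in MIZ-1dPOZ. Its level rose from 17.6 ± 1.22 to 76.0 ± 10.4 CPM (SD, n = 2), a log2 fold change of 2.12 (SE 0.11, adjusted p = 0.000739). Exons of *Exosc9* overlap *Ccna2* on the opposite strand, and since the strand setting of the counting is not given in the sources used here, reads of such partners cannot be told apart. Cyclin B2 is encoded by *Ccnb2* (ENSMUSG00000032218, chromosome 9, 70407692 to 70421547), which had 233 and 259 counts in MIZ-1WT and 1324 and 1027 in MIZ-1dPOZ. It had the largest difference of the group, 2.15 (SE 0.13, adjusted p = 0.000758), with 5.75 ± 0.580 against 25.6 ± 3.12 CPM (SD, n = 2). Cyclin B1, the main partner of CDK1 in mitosis, is encoded by *Ccnb1* (ENSMUSG00000041431, chromosome 13, 100778650 to 100786570) and had 340 and 308 counts against 1534 and 1175, a log2 fold change of 1.96 (SE 0.12, adjusted p = 0.000758). For both B cyclins a pseudogene copy is annotated in the same genome, so a part of their counts is uncertain. *Cdk1* (ENSMUSG00000019942, chromosome 10, 69335146 to 69352938) had 361 and 440 counts in MIZ-1WT and 1968 and 1388 in MIZ-1dPOZ, also a log2 fold change of 1.96 (SE 0.17, adjusted p = 0.00145). In all 4 genes MIZ-1dPOZ replicate 1 was the highest library and replicate 2 the next.

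The mitotic kinases PLK1 and Aurora A mature the centrosomes and build the spindle poles. *Plk1* (ENSMUSG00000030867, chromosome 7, 122159439 to 122169873) had 101 and 126 counts in MIZ-1WT and 612 and 495 in MIZ-1dPOZ, so that it rose from 2.66 ± 0.483 to 12.1 ± 1.12 CPM (SD, n = 2). Its log2 fold change was 2.18 (SE 0.17, adjusted p = 0.00109), and *Gm44985* overlaps it on the opposite strand. *Aurka* was 2.64-fold higher.

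The chromosomal passenger complex, which corrects wrong attachments of microtubules, consists of the kinase Aurora B and its partners INCENP, survivin (*Birc5*) and borealin (*Cdca8*). All 4 genes were higher, and their 95% confidence intervals lay between 0.85 and 2.14 on the log2 scale. *Aurkb* (ENSMUSG00000020897, chromosome 11, 69045647 to 69051664) had 458 and 419 counts in MIZ-1WT and 1369 and 1213 in MIZ-1dPOZ, a rise from 10.2 ± 0.375 to 28.2 ± 0.796 CPM (SD, n = 2) and a log2 fold change of 1.46 (SE 0.08, adjusted p = 0.000739). *Birc5* (ENSMUSG00000017716, chromosome 11, 117849251 to 117855743) had 257 and 192 counts against 893 and 762, the largest difference of the complex with 1.79 (SE 0.14, adjusted p = 0.00117). The smallest was that of *Incenp*, which was 2.15-fold higher, and *Cdca8*, overlapped by *9930104L06Rik* on the opposite strand, was 2.91-fold higher.

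At the centromere and kinetochore, 5 of 6 genes were higher, over the widest range of any role. *Nuf2* (ENSMUSG00000026683, chromosome 1, 169497934 to 169531464) encodes a subunit of the NDC80 complex, which holds the microtubule at the kinetochore. It had 263 and 241 counts in MIZ-1WT and 1686 and 1115 in MIZ-1dPOZ, and its log2 fold change of 2.37 (SE 0.17, adjusted p = 0.00103) was the largest of the 48 genes. *Cenpe* (ENSMUSG00000045328, chromosome 3, 135212537 to 135273611) encodes a kinesin of the outer kinetochore. It had 622 and 687 counts against 2887 and 2249, a rise from 15.3 ± 1.48 to 56.0 ± 6.66 CPM (SD, n = 2) and a log2 fold change of 1.87 (SE 0.11, adjusted p = 0.000758). *Cenpf*, of the outer kinetochore as well, was 3.90-fold higher.

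The other subunits of the NDC80 complex differed less than *Nuf2*. *Ndc80* was 1.40-fold higher, with 909 and 903 counts in MIZ-1WT against 1529 and 1191 in MIZ-1dPOZ and a log2 fold change of 0.49 (SE 0.10, adjusted p = 0.0129), the largest adjusted p among the 45 called genes of the set. Its adjusted p was 0.0842 without MIZ-1WT replicate 1 and 0.0643 without MIZ-1WT replicate 2. *Spc25* was 1.75-fold higher, and *Spc24*, which belongs to the complex but not to the set, had a log2 fold change of 1.73 (adjusted p = 0.00144). The 95% confidence intervals of *Nuf2* (1.94 to 2.80), *Ndc80* (0.25 to 0.73) and *Spc25* (0.53 to 1.09) on the log2 scale leave a gap between *Nuf2* and the others, and the differences between subunits were not tested. Levels per length of the 3 genes were further apart in MIZ-1WT, where *Nuf2* had 0.951 and 0.904 RPKM, *Ndc80* 3.21 and 3.31 and *Spc25* 2.73 and 2.38, than in MIZ-1dPOZ. There *Nuf2* had 5.59 and 4.01 RPKM, *Ndc80* 4.95 and 4.18 and *Spc25* 4.69 and 4.25. *Cenpa*, the histone H3 variant that marks the centromere, did not pass the test. It had 818 and 816 counts in MIZ-1WT and 955 and 964 in MIZ-1dPOZ, with a log2 fold change of 0.14 (SE 0.08, adjusted p = 0.216) and a 95% confidence interval from -0.06 to 0.34.

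The spindle checkpoint had 4 of 4 genes higher. *Bub1* (ENSMUSG00000027379, chromosome 2, 127801122 to 127831865) encodes a checkpoint kinase of the kinetochore and had 356 and 295 counts in MIZ-1WT against 1674 and 1295 in MIZ-1dPOZ. It rose from 7.59 ± 0.808 to 32.3 ± 4.01 CPM (SD, n = 2), a log2 fold change of 2.09 (SE 0.13, adjusted p = 0.000758). *Ttk*, the kinase MPS1 that starts the checkpoint signal, was 3.45-fold higher, and *Bub1b*, the BUBR1 subunit of the inhibitor of the anaphase-promoting complex, 3.11-fold. *Mad2l1*, the MAD2 subunit of the same inhibitor, had 1053 and 1017 counts against 1686 and 1524, and was the least changed of the group with 0.54 (SE 0.06, adjusted p = 0.00255).

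For the onset of anaphase, 3 of 3 genes were higher. *Cdc20* (ENSMUSG00000006398, chromosome 4, 118432901 to 118437352) encodes the activator of the anaphase-promoting complex that the checkpoint holds back. It had 427 and 461 counts in MIZ-1WT and 1758 and 1442 in MIZ-1dPOZ, a rise from 10.4 ± 0.834 to 34.9 ± 2.89 CPM (SD, n = 2) and a log2 fold change of 1.75 (SE 0.10, adjusted p = 0.000739). *Ube2c* (ENSMUSG00000001403, chromosome 2, 164769898 to 164778822) encodes an enzyme that passes ubiquitin to the targets of that complex and had 125 and 86 counts against 417 and 470, a log2 fold change of 1.98 (SE 0.21, adjusted p = 0.00210). *Ube2c* was 1 of 4 genes of the set with the higher value in MIZ-1dPOZ replicate 2. *Elovl1* overlaps *Cdc20* and *Tnnc2* overlaps *Ube2c* on the opposite strand. *Espl1*, which encodes separase, was 3.85-fold higher and was the least abundant member per length in MIZ-1WT, with 0.396 and 0.359 RPKM.

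Among the motors of the spindle, 6 of 7 kinesin genes were higher, by 2.97-fold to 4.38-fold. *Kif11* (ENSMUSG00000012443, chromosome 19, 37376403 to 37421859), the motor Eg5 that pushes the spindle poles apart, had 1187 and 1187 counts in MIZ-1WT and 5728 and 4341 in MIZ-1dPOZ. Its level rose from 27.7 ± 0.729 to 109.6 ± 15.2 CPM (SD, n = 2), a log2 fold change of 1.98 (SE 0.10, adjusted p = 0.000739). *Kif18b* (ENSMUSG00000051378, chromosome 11, 102905529 to 102925124), a motor of microtubule ends, had 139 and 131 counts against 709 and 558 and the largest difference of the group, 2.13 (SE 0.13, adjusted p = 0.000764). *Kif2c*, *Kif20a*, *Kif15* and *Kif23* had log2 fold changes of 2.11, 1.90, 1.65 and 1.57, and *Cdc23* overlaps *Kif20a* on the opposite strand. *Kif20b*, the other motor, had 2455 and 2493 counts in MIZ-1WT and 3303 and 2694 in MIZ-1dPOZ. Its log2 fold change of 0.18 (SE 0.07) did not pass the test (adjusted p = 0.109), and its 95% confidence interval ran from -0.01 to 0.36. Without MIZ-1dPOZ replicate 2 it was 0.28 and passed (adjusted p = 0.0177).

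Proteins that organise the spindle were higher in 5 of 5 genes, and 2 of them had the smallest p-values of the set after *Mki67*. *Aspm* (ENSMUSG00000033952, chromosome 1, 139454772 to 139494091), which focuses the spindle poles, had 504 and 498 counts in MIZ-1WT and 2302 and 1990 in MIZ-1dPOZ, a rise from 11.7 ± 0.209 to 46.9 ± 2.14 CPM (SD, n = 2) and a log2 fold change of 2.00 (SE 0.07, adjusted p = 0.000340). *Tpx2* (ENSMUSG00000027469, chromosome 2, 152847964 to 152895321), which activates Aurora A on the spindle, had 436 and 431 counts against 2161 and 1802 and a log2 fold change of 2.09 (SE 0.08, adjusted p = 0.000468). *Hmmr*, *Nusap1* and *Prc1* were 3.91-fold, 3.65-fold and 3.29-fold higher. *Oip5* overlaps *Nusap1* and *Rccd1* overlaps *Prc1* on the opposite strand.

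Cytokinesis was represented by 3 genes, all higher, with smaller differences than most of the spindle genes. *Racgap1* (ENSMUSG00000023015, chromosome 15, 99620496 to 99651656) encodes the partner of KIF23 in centralspindlin, the complex that marks the plane of division. It had 731 and 724 counts in MIZ-1WT and 2098 and 1675 in MIZ-1dPOZ, a log2 fold change of 1.28 (SE 0.09, adjusted p = 0.000933). *Anln* (ENSMUSG00000036777, chromosome 9, 22332012 to 22389188), anillin of the contractile ring, had 186 and 186 counts against 696 and 499, with 1.58 (SE 0.15, adjusted p = 0.00183). *Ect2*, which switches on RhoA at the division plane, was 2.24-fold higher.

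**Figure D2:**
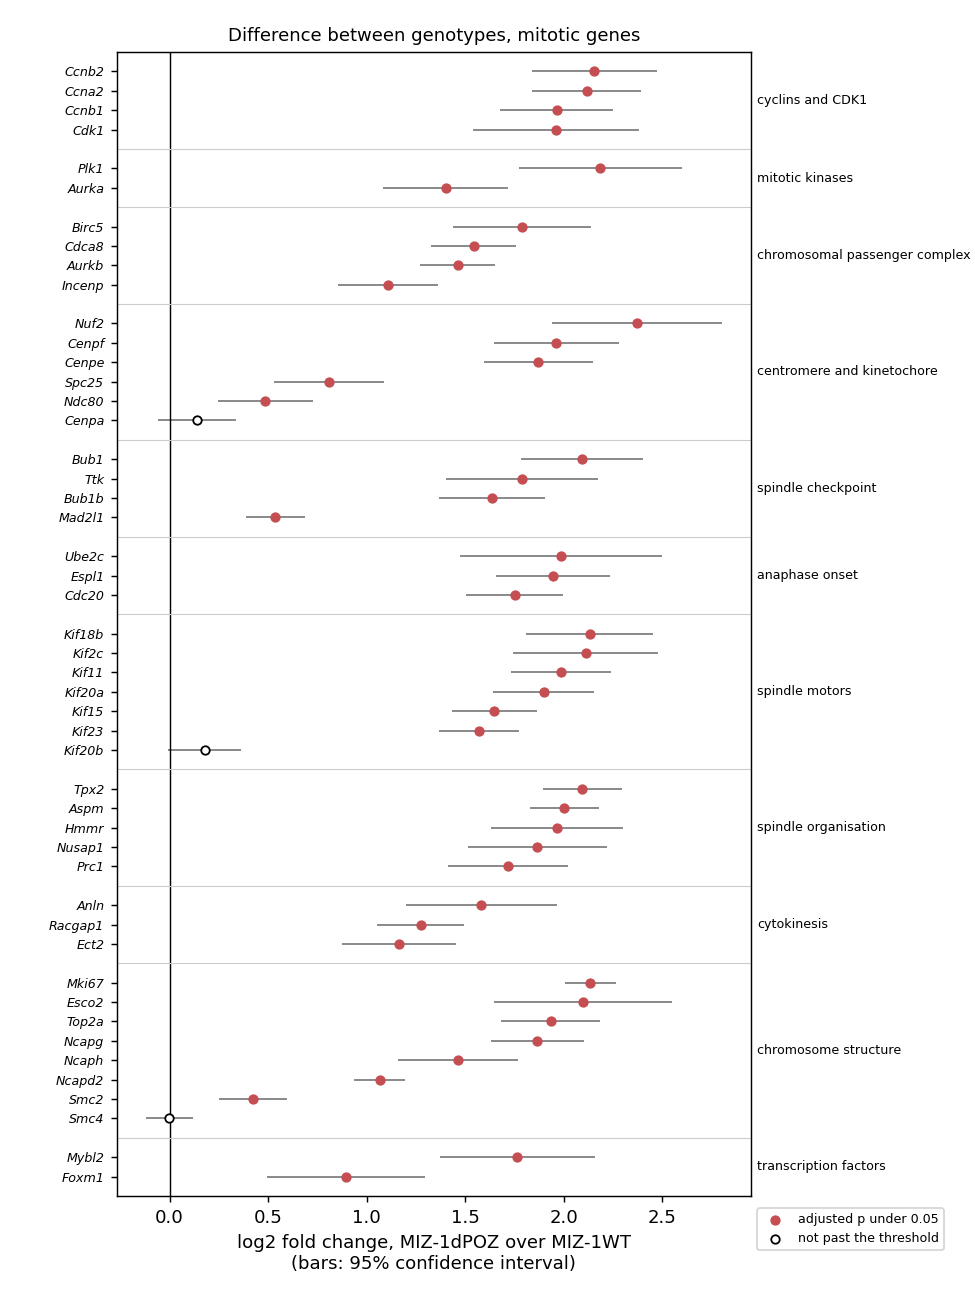
Log2 fold change of each gene (MIZ-1dPOZ over MIZ-1WT) with its 95% confidence interval as a bar, from edgeR's quasi-likelihood fit on 2 libraries per genotype, filled where the adjusted p is under 0.05 and open where it is not. Most genes lie between 1 and 2.37, and the open points are *Cenpa*, *Kif20b* and *Smc4*.

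Chromosome structure held the most abundant genes of the set, and 7 of its 8 genes were higher. *Mki67* (ENSMUSG00000031004, chromosome 7, 135689784 to 135716361) encodes Ki-67, which coats mitotic chromosomes and is the usual mark of dividing cells. It had 2704 and 2448 counts in MIZ-1WT and 12691 and 11456 in MIZ-1dPOZ, so that it rose from 60.1 ± 2.65 to 264 ± 3.98 CPM (SD, n = 2). Its log2 fold change of 2.13 (SE 0.05) had the smallest adjusted p of the set, 6.06e-05. *Top2a* (ENSMUSG00000020914, chromosome 11, 98992943 to 99024189), the topoisomerase that untangles sister chromatids, had 4755 and 4606 counts against 21928 and 16438, a rise from 109 ± 0.413 to 418 ± 60.9 CPM (SD, n = 2) and a log2 fold change of 1.93 (SE 0.10, adjusted p = 0.000739). *Esco2*, which acetylates cohesin in S phase, was 4.28-fold higher.

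Within condensin, the ring complex that compacts chromosomes, the regulatory subunits were higher and a core subunit did not pass the test. The 3 regulatory subunits of condensin I were higher, *Ncapg* by 1.87, *Ncaph* by 1.46 and *Ncapd2* by 1.07 on the log2 scale. *Smc4*, a core ATPase shared by condensin I and II, had 14210 and 14135 counts in MIZ-1WT and 16084 and 14202 in MIZ-1dPOZ. Its level was 331 ± 7.46 and 331 ± 10.1 CPM (SD, n = 2), with a 95% confidence interval from -0.12 to 0.12 on the log2 scale (adjusted p = 0.988). The other core subunit, *Smc2*, was 1.34-fold higher with a log2 fold change of 0.42 (SE 0.07, adjusted p = 0.00719), and its adjusted p was 0.0531 without MIZ-1WT replicate 1 and 0.0566 without MIZ-1WT replicate 2. Per length, *Smc4* was the most abundant of the 48 genes in both genotypes, with 62.5 and 64.6 RPKM in MIZ-1WT and 64.9 and 62.1 in MIZ-1dPOZ. *Ncapg* had 2.37 and 2.48 RPKM in MIZ-1WT and 9.55 and 8.13 in MIZ-1dPOZ, far below *Smc4* in both. Of the subunits of condensin II tested outside the set, *Ncapg2* had a log2 fold change of 1.83 (adjusted p = 0.00118) and *Ncapd3* one of 0.40 (adjusted p = 0.00720). Exons of *Lcorl* overlap *Ncapg* on the opposite strand, and small or predicted genes overlap *Top2a* and *Ncapd2* on the same strand. *Gm44596* and *Tex52* overlap *Foxm1* on the same strand.

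The transcription factors that drive the program in G2 were low in both genotypes and were higher in 2 of 2 genes. *Mybl2* (ENSMUSG00000017861, chromosome 2, 163054687 to 163084688), which encodes B-MYB, had 114 and 115 counts in MIZ-1WT and 476 and 359 in MIZ-1dPOZ, a rise from 2.67 ± 0.0868 to 9.09 ± 1.29 CPM (SD, n = 2) and a log2 fold change of 1.76 (SE 0.16, adjusted p = 0.00155). *Foxm1* had 247 and 180 counts against 433 and 413, a smaller difference of 0.89 (SE 0.16, adjusted p = 0.00959).

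Some of the genes that differed least were the most abundant of the set. The 8 genes under a 2-fold difference were *Cenpa*, *Foxm1*, *Kif20b*, *Mad2l1*, *Ndc80*, *Smc2*, *Smc4* and *Spc25*, and *Smc4*, *Smc2* and *Kif20b* ranked first, second and 4th of the set in level per length in MIZ-1WT. In MIZ-1dPOZ, *Top2a* took the place of *Smc2* with 51.1 and 41.6 RPKM, against 12.1 and 12.2 in MIZ-1WT, and *Kif20b* was at rank 14. Over the 48 genes, Spearman's rho of the level in MIZ-1WT and the log2 fold change was -0.35. The same MIZ-1WT libraries enter both measures, so this value is a description only.

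**Figure D3:**
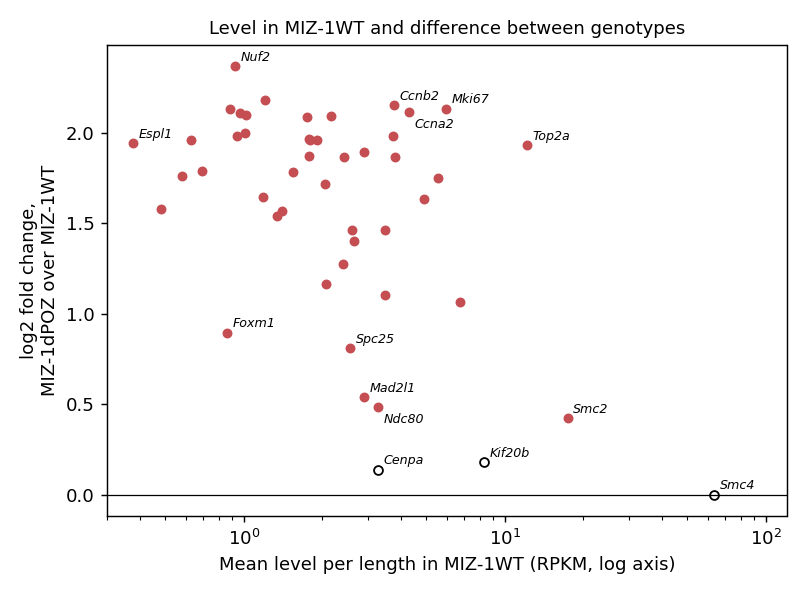
Mean level per length in MIZ-1WT (RPKM, log axis) against the log2 fold change between the genotypes for the 48 genes, filled where the adjusted p is under 0.05. *Smc4* and *Smc2* have the highest levels and small differences, whereas *Top2a*, at rank 3 in level, was 3.82-fold higher and *Kif20b*, at rank 4, had a fold difference of 1.13 that did not pass the test.

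Genes of the pathway outside the set were counted in lists for comparison. These lists were also chosen with earlier results known, so their counts are not independent evidence. Over all tested genes, 21.1% were higher and 18.9% lower. Among other genes of mitosis, 56 of 60 tested genes were higher and 1 lower (*Cdc25b*), with a median of 1.41. *Kif4*, a chromosome motor, rose from 8.65 to 32.9 CPM (log2 fold change 1.93, SE 0.10, adjusted p = 0.000739). *Cdca3*, which helps to release the block on CDK1, and *Ckap2l*, a spindle protein, had log2 fold changes of 2.14 and 1.97, both with an adjusted p of 0.000739. Genes of S phase were higher in 31 of 36 tested and lower in 1 (*Cdt1*), with a smaller median of 0.75. *Tk1*, thymidine kinase of nucleotide supply, was 2.42-fold higher, *Rrm2*, of ribonucleotide reductase, 3.11-fold, and *Cdc6*, which loads the replicative helicase, 3.92-fold. The difference between the medians of the lists was not tested.

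Lists of the anaphase-promoting complex, of DREAM and MuvB, and of cohesin did not follow the set. Their counts stand beside 21.1% of all tested genes that were higher and 18.9% that were lower. For the anaphase-promoting complex the counts were near these shares. Among 16 genes of the anaphase-promoting complex and its close partners, 3 were higher and 2 lower with a median of 0.03, whereas its activator *Cdc20* and its enzyme *Ube2c* belong to the set and were more than 3-fold higher. *Ube2s* was 1.38-fold and *Anapc5* 1.30-fold higher, and *Anapc10* had a log2 fold change of -0.30 (adjusted p = 0.0338). Of 12 genes listed for DREAM and MuvB, 2 were higher and 5 lower with a median of -0.18. The list also held *Rb1*, which is not a subunit of either and did not pass the test. *Tfdp1*, a partner of E2F proteins, rose 1.98-fold, while *Lin54*, the subunit of MuvB that binds the CHR, and *Tfdp2* had log2 fold changes of -0.43 (adjusted p = 0.00365) and -0.41 (adjusted p = 0.00877). Of 11 genes of cohesin and its loaders, 0 were higher and 7 were lower with a median of -0.27, against 18.9% of all tested genes that were lower. *Esco1*, *Mau2* and *Stag2* each had a log2 fold change of -0.41, with adjusted p-values of 0.00235, 0.00238 and 0.00280.

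**Figure D4:**
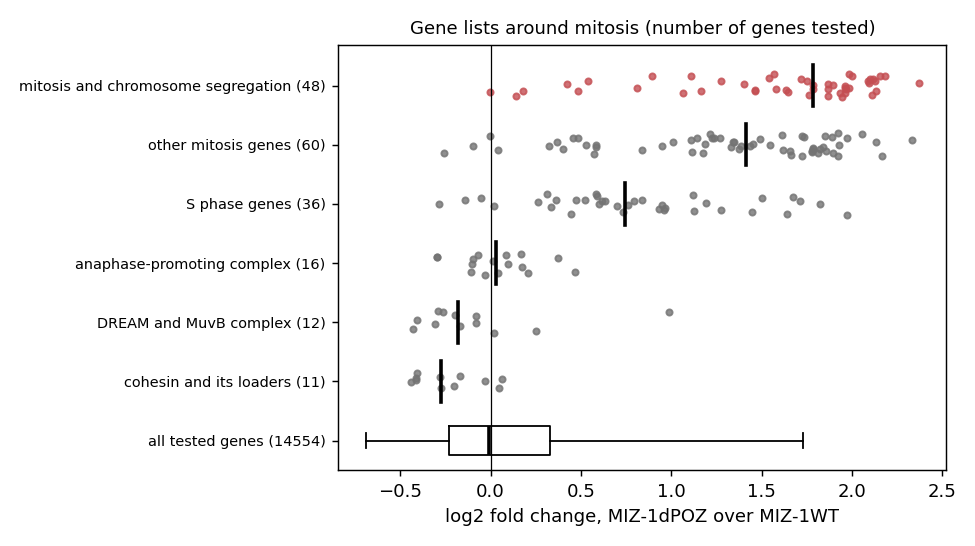
Log2 fold change (MIZ-1dPOZ over MIZ-1WT) of each tested gene in 6 lists, as points with a black bar at the median, beside a box of the quartiles of all 14554 tested genes with whiskers from the 5th to the 95th percentile. The medians are 1.79 for the set, 1.41 for other mitosis genes and 0.75 for S phase genes, and lie near 0 or below it for the anaphase-promoting complex, DREAM and MuvB, and cohesin.

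Both genotypes carried the marks of B cells, with a summed level of 11 pan-B cell genes of 14116 and 14440 CPM in MIZ-1WT and 11700 and 12085 in MIZ-1dPOZ. Of these 11 pan-B cell genes, 9 were lower and 0 higher in MIZ-1dPOZ, with a median of -0.25. Markers of some other cells and states, those of germinal centers, plasma cells and macrophages, were mostly higher as well. Their part in the result was not tested. Of 8 germinal center markers, 7 were higher and 1 (*Bcl6*, log2 fold change -1.36) was lower, with a median of 2.51. Their summed level was 160 and 166 CPM in MIZ-1WT and 330 and 264 in MIZ-1dPOZ. *Bcl6* made up most of this sum in MIZ-1WT, with a mean of 110 CPM, against 42.8 CPM in MIZ-1dPOZ. Of 8 plasma cell markers, 7 were higher with a median of 1.04, and their sum was 884 and 1203 CPM against 2728 and 2558. *Jchain* was the largest part of it in both genotypes, with means of 459 CPM in MIZ-1WT and 1868 in MIZ-1dPOZ.

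Markers of macrophages were higher in 16 of 16 genes with a median of 1.98 and a sum of 980 and 1305 CPM in MIZ-1WT against 5839 and 3650 in MIZ-1dPOZ. Of 13 tested erythroid markers 3 were higher, and their sum did not separate the genotypes, with 52.8 and 66.2 CPM against 46.9 and 128. Of 13 T cell markers 2 were higher and 1 lower, and of 6 tested neutrophil markers 1 was higher. The early B cell markers *Igll1*, *Rag2* and *Vpreb1* had at most 14 counts in any library, *Rag2* was at 0 in both MIZ-1dPOZ libraries, and of the 3 precursor markers tested 0 were higher and 2 lower. Of 6 markers of plasmacytoid dendritic cells, 1 was higher and 1 lower, and of 3 tested megakaryocyte markers 1 was higher, with *Gp1bb* at 0 in every library.

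**Figure D5:**
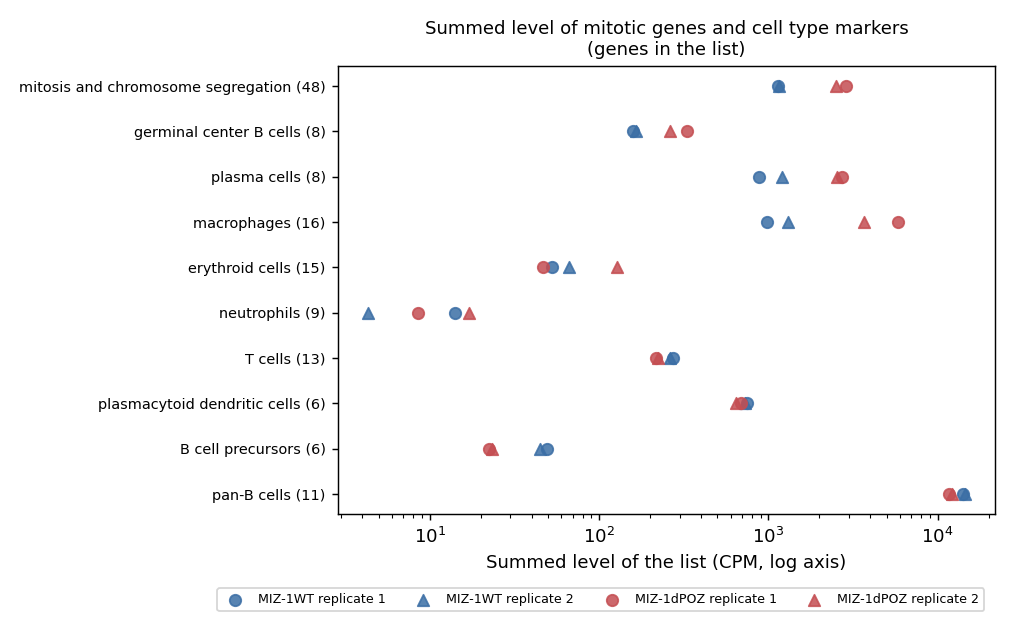
Summed level in CPM on a log axis of the 48 mitotic genes and of lists of cell type markers, with blue for MIZ-1WT, red for MIZ-1dPOZ, circles for replicate 1 and triangles for replicate 2. The sums for germinal center, plasma cell and macrophage markers are higher in both MIZ-1dPOZ libraries, as is the sum of the mitotic genes, and the erythroid and neutrophil sums overlap.

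The replicates of a genotype were not equal. In MIZ-1dPOZ, 44 of 48 genes were higher in replicate 1 than in replicate 2, with a median difference (replicate 2 minus replicate 1) of -0.22 on the log2 scale, while in MIZ-1WT 22 of 48 were higher in replicate 1 and the median was 0.01. Macrophage markers differed between the MIZ-1dPOZ replicates in the same direction, by -0.68 in the median and in 16 of 16 genes, and germinal center markers by -0.40. In MIZ-1WT those markers differed by 0.39 and 0.42, where the median of the mitotic genes was 0.01. Whether these markers and the mitotic genes vary together was not tested. Erythroid markers differed the other way in MIZ-1dPOZ, by 1.55. Without MIZ-1dPOZ replicate 1, the median of the 48 genes was 1.66 and 45 were higher, and without replicate 2 the median was 1.91 and 46 were higher.

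Between 43026814 and 46387209 counts fell on genes in each library. *Zbtb17*, which encodes MIZ-1, had a log2 fold change of -0.32 (adjusted p = 0.00857), but counts over the whole gene do not show the loss of the POZ exons. Genes of the Y chromosome were lower in 4 of 4 in MIZ-1dPOZ, and *Xist* had 49 and 60 counts in MIZ-1WT against 38145 and 40838 in MIZ-1dPOZ. By these genes the MIZ-1WT libraries were male and the MIZ-1dPOZ libraries mainly female. Some Y-linked counts remained in MIZ-1dPOZ, with 680 and 622 for *Ddx3y* against 15840 and 14896 in MIZ-1WT, and their source was not tested. The sex of the mice and the genotype cannot be told apart for the mitotic genes.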

How the data were processed

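Ribosomal RNA was depleted and stranded, paired-end libraries were made from B220+ splenocytes. Reads were trimmed with Trimmomatic, aligned to mm10 (GRCm38) with TopHat2, version 2.1.0 in the submitters' processing notes, and assigned to Ensembl genes by HTSeq. The values deposited by the authors are raw counts per gene and library. The strand setting and the Ensembl release of the counting are not given in the sources used here. Summary lines that name no gene did not enter any step, and reads outside genes made up 21.1% to 27.2% of the table. Symbols and positions came from GENCODE M21 and matched 40340 of 41214 genes.

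Counts were normalized with TMM factors (0.977 to 1.03). Genes that reached 10 counts in 2 or more libraries were analysed with edgeR 4.0.16 in R 4.3.3 by the quasi-likelihood test, with all 4 libraries, no block and Benjamini-Hochberg adjustment over 14554 genes at a threshold of 0.05. SE and the 95% confidence intervals came from that fit. CPM and RPKM were computed from the counts, RPKM with the summed exon length. The procedure was tested on simulated data. The members and the gene lists were chosen with earlier results of these data known. Named with values in every library were, in each role, the genes with the smallest p and the largest absolute log2 fold change, and *Mki67*, *Top2a*, *Ccnb1* and *Cdk1*. From each pathway list the 3 genes with the smallest p were named with a fold or log2 fold change. Other genes were named after their values were seen. Alternatives were DESeq2 size factors, upper-quartile factors, the DESeq2 1.42.0 Wald test, no filter, a mean of at least 100 counts, a replicate block, removal of immunoglobulin genes and leaving out each library. The values of some single marker genes are not reported here.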

Additional observations from a re-analysis of the deposited data

How the results depend on the processing

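The count of mitotic genes higher in MIZ-1dPOZ was 45, with 0 lower, under DESeq2 size factors, upper-quartile factors, the DESeq2 Wald test, no filter, a mean of at least 100 counts and without immunoglobulin genes, and the median lay between 1.78 and 1.82. With the replicate block the count was 45, the number lower 0 and the median 1.79. Whether same-numbered libraries were handled together is not given in the labels. Their deviations from the group means correlated at -0.07 over 14554 genes, which with 2 libraries per genotype cannot decide this. Leaving out 1 library gave 43 to 46 higher, 0 lower and a median from 1.66 (without MIZ-1dPOZ replicate 1) to 1.91 (without MIZ-1dPOZ replicate 2). The calls lost without either MIZ-1WT library were *Ndc80* and *Smc2*. *Smc4*, which passed no test, had -0.0012 in the report's fit and changed sign to 0.0018 under DESeq2 size factors, 0.023 under upper-quartile factors, 0.0018 in the Wald test, 0.027 with a mean of at least 100 counts and 0.0028 without immunoglobulin genes, and ran from -0.026 without MIZ-1WT replicate 1 to 0.020 without MIZ-1WT replicate 2 and 0.050 without MIZ-1dPOZ replicate 2. Over all tested genes, 1374 were higher and 848 lower without MIZ-1WT replicate 1, and 1728 and 1115 without MIZ-1WT replicate 2, against 3076 and 2746, in fits with 3 libraries. A lone library of a genotype was there assumed to vary like the others. Of the alternatives for single genes of the set, 516 left direction and call the same, 4 lost and 1 gained a call, and 7 changed sign, all of *Smc4*. With 2 libraries per genotype, the 95% confidence intervals of *Cenpa* and *Kif20b* include 0.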

Other observations

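Among the other genes of mitosis, the largest differences were those of *Nek2*, a centrosome kinase (log2 fold change 2.34, adjusted p = 0.000867), and *Cdc25c*, a phosphatase that activates CDK1 (2.17, adjusted p = 0.00287), both named after their values were seen. *Pttg1*, which encodes securin, the inhibitor of separase, had -0.10 (adjusted p = 0.3604), whereas *Espl1* itself had 1.94. *Hjurp*, the chaperone of CENP-A, had 0.32 (adjusted p = 0.00646), beside 0.14 for *Cenpa*. In S phase, the subunits of the replicative helicase *Mcm2* to *Mcm7* were higher by smaller amounts, from 0.45 for *Mcm4* to 0.84 for *Mcm6*, and *Mcm10*, which activates it, by 1.83. *E2f1* and *E2f8* had log2 fold changes of 0.96 and 1.67, and *E2f2* had -0.14 (adjusted p = 0.150).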
